A study of Mus musculus with 12 samples.

Results

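The RNA-binding proteins that choose between exon 9 and exon 10 of the pyruvate kinase gene Pkm were followed in natural killer (NK) cells, innate killer lymphocytes, cultured from mouse spleen. The 5 genes, Ptbp1, Hnrnpa1, Hnrnpa2b1, Srsf3 and Rbm4, were chosen for this known role, though with earlier results of these data known. They make up 5 of 11706 genes in the deposited expression table. All 5 passed the filter on low values, a mean of at least 1 RPKM (a read level scaled to gene length and to the library's mapped reads), as did 11142 genes in all. In the libraries labelled as control NK cells of the genotype experiment, 4 of the 5 regulators stood well below their level in the vehicle libraries of the drug experiment, as Pkm did, while Rbm4 overlapped. The genotype libraries also had low Ifng despite a label of cytokine activation, and activation state cannot be told apart from the rest of this difference. None of the 5 passed the threshold in the knockout or drug comparison, where 0.0987% and 0.0% of all tested genes did.

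Pkm encodes 2 forms of pyruvate kinase, the last enzyme of glycolysis. Exon 9 gives PKM1, an always active enzyme, and exon 10 gives PKM2, whose activity is regulated and which proliferating cells and activated lymphocytes mostly use. Work in human and mouse cell lines has shown that PTBP1, hnRNPA1 and hnRNPA2B1 bind beside exon 9 and block it, so that exon 10 is used. SRSF3, studied in human cells, favours exon 10, and RBM4 favours exon 9 by acting against PTBP1.

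The NK cells, of strain C57BL6, were expanded in IL-15 (10 ng/mL, 6 days). Per the labels they then received IL-2 (330 U/mL) with IL-12 (10 ng/mL), activating cytokines, during 18 hours. The genotype experiment had 3 libraries labelled PKM2 WT, from animals with a heterozygous Cre in the NK cell gene Ncr1 (NCR1Cre het), and 2 labelled PKM2 KO, with the same Cre and floxed alleles (PKM2fl/fl), so that the deletion is limited to cells that have expressed Ncr1. The drug experiment had 3 vehicle and 3 TEPP-46 libraries from WT animals. TEPP-46, a small molecule that activates PKM2, was given at 50 µM per the series text and at 50 mM per the sample labels, and its vehicle is named as DMSO at 0.1% in the labels and as PBS in the series text. Ages and sexes are not given in the labels. The labels call the replicates biological without saying how many animals gave each culture, and p-values therefore describe only how these libraries vary.

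The exon pair shows what the regulators choose between, and is printed because the RPKM counts the whole gene and cannot tell the forms apart. Exon 9 lies at chr9:59675029-59675195 and exon 10 at chr9:59675568-59675734, on the plus strand of GRCm38, and both sequences were read from the GENCODE M21 transcripts. Each has 167 bases, of which 103 are the same at the same place (61.7%) and 64, in capitals, differ.
Pkm exon 9: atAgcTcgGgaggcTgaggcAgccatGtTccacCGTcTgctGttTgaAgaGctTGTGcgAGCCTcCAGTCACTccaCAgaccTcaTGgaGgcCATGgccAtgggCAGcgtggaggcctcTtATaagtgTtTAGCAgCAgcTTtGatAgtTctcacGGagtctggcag
Pkm exon 10: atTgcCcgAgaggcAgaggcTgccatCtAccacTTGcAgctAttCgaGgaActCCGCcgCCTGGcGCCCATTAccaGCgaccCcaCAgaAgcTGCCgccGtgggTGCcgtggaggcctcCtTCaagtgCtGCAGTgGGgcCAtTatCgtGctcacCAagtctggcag
GENCODE M21 places the unclassified gene Gm49759 over this region on the same strand, so reads here can belong to either gene.

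Before the results, the libraries were set against their labels. Pkm followed the genotype label, with 221, 198 and 199 RPKM in libraries labelled PKM2 WT but 76.7 and 78.4 RPKM in those labelled PKM2 KO. The activation label was not followed in the same way, since Ifng, the main cytokine gene of activated NK cells, lay between 18.8 and 24.3 RPKM in the 5 genotype libraries and between 797 and 1083 RPKM in the 6 drug libraries. In the authors' deposited table the mean ratio of Pkm between knockout and wild type is 0.539 for the cells it calls 2/12 and 0.396 for those it calls US, against a ratio of means of 0.377 in the labelled libraries. For Slc37a4, the glucose-6-phosphate transporter gene, chosen after its values were seen, the authors' deposited table gives 0.411 for 2/12 and 0.845 for US, against 0.847 here. Results of the genotype libraries therefore describe NK cells with low Ifng under an activation label. The NK marker Ncr1 was read in all 11 libraries, between 232 and 258 RPKM in the 5 genotype libraries and between 90.5 and 134 RPKM in the 6 drug libraries. The median tested gene stood between 13.2 and 14.4 RPKM in each library.

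The regulators kept a fixed order of abundance. In each of the 11 libraries Hnrnpa2b1 was the highest of the 5 in RPKM, a level per length, followed by Hnrnpa1, Srsf3, Ptbp1 and Rbm4. Replicates of the same group were close, with a coefficient of variation between 0.152% for Ptbp1 in PKM2 KO and 13.0% for Rbm4 in PKM2 KO.

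**Figure D1:**
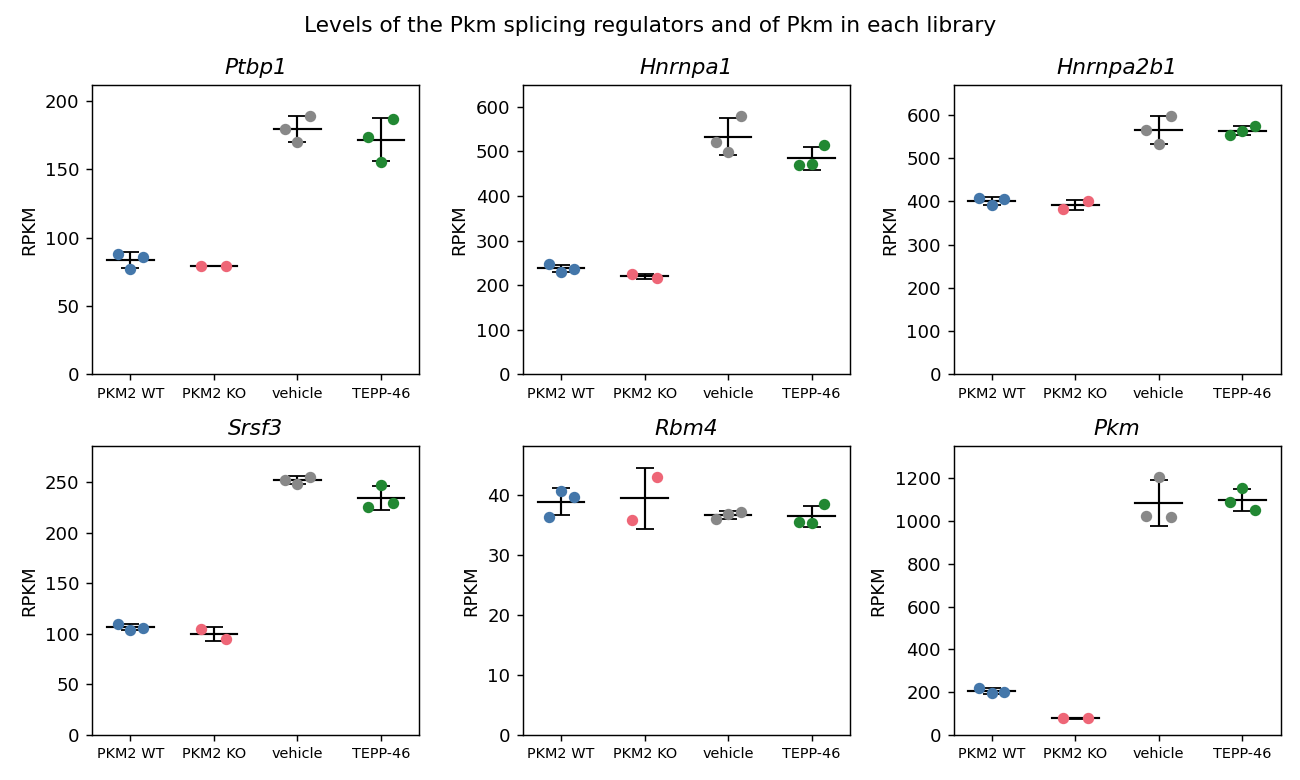
Levels in RPKM (y axis, from 0, a separate scale for each gene) of the 5 regulators and of Pkm, by group, with a point for each library and the mean and SD in black. Ptbp1, Hnrnpa1, Hnrnpa2b1 and Srsf3 lie lower in all 5 genotype libraries than in all 6 drug libraries, while the Rbm4 libraries overlap.

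Among the factors that block exon 9, Ptbp1 (ENSMUSG00000006498, chromosome 10, 79854427 to 79864771, GRCm38) encodes the polypyrimidine tract binding protein. Its levels in the PKM2 WT libraries were 87.8, 77.0 and 85.7 RPKM, and in the PKM2 KO libraries 79.1 and 79.3 RPKM. In the drug experiment it was at 179, 170.2 and 189 RPKM in vehicle and 174, 156 and 187 RPKM under TEPP-46. The 2 experiments did not overlap, whereas the groups within each experiment did. GENCODE M21 places genes on the opposite strand over its ends, Plppr3 among them, and the sources used here do not say whether counting used strand.

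Hnrnpa1 (ENSMUSG00000046434, chromosome 15, 103240432 to 103246692) encodes an abundant nuclear RNA-binding protein. Controls of the genotype experiment held 246, 230.2 and 235 RPKM and PKM2 KO 224 and 216 RPKM, so that both knockout libraries lay below the lowest control. In vehicle it was at 522, 499 and 579.8 RPKM and under TEPP-46 at 469, 471 and 514 RPKM, with overlap between the groups. Genes of this family have near-identical processed copies elsewhere in the genome, and reads shared with such copies make the levels of Hnrnpa1 and Hnrnpa2b1 uncertain.

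Hnrnpa2b1 (ENSMUSG00000004980, chromosome 6, 51460932 to 51469894) encodes the closely related hnRNPA2 and hnRNPB1. The PKM2 WT libraries held 409, 391 and 405 RPKM. It was at 382 and 400.04 RPKM in PKM2 KO, 564, 533 and 598 RPKM in vehicle and 553, 563 and 574 RPKM under TEPP-46. Its step between the experiments was the smallest of the 4 regulators that differed.

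Of the factors that favour an exon, Srsf3 (ENSMUSG00000071172, chromosome 17, 29032628 to 29043373) encodes the smallest SR protein, a splicing enhancer, and favours exon 10. PKM2 WT libraries held 109.97, 104 and 106 RPKM, against 105 and 94.8 RPKM for PKM2 KO. In vehicle it was at 253, 248.3 and 255 RPKM and under TEPP-46 at 226, 247.4 and 229.7 RPKM. The TEPP-46 libraries all lay below the vehicle libraries, the gap at the boundary being narrow.

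Rbm4 (ENSMUSG00000094936, chromosome 19, 4784293 to 4793901, minus strand), which favours exon 9, stood apart from the other 4. Its PKM2 WT libraries held 36.4, 40.7 and 39.8 RPKM. It was at 35.9 and 43.1 RPKM in PKM2 KO, 36.1, 36.9 and 37.3 RPKM in vehicle and 35.6, 35.4 and 38.5 RPKM under TEPP-46. All 4 groups overlapped. The gene Gm21992 lies over it on the same strand and was between 2.52 and 10.3 RPKM, so some reads may be split between the 2 genes.

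The control groups of the 2 experiments gave the widest differences among the regulators. Srsf3 was 2.37-fold, Hnrnpa1 2.25-fold, Ptbp1 2.15-fold and Hnrnpa2b1 1.41-fold higher in vehicle than in the libraries labelled PKM2 WT by their mean RPKM, and Pkm was 5.27-fold higher. Rbm4 had a mean of 36.8 ± 0.638 RPKM (SD, n = 3) in vehicle and 38.9 ± 2.27 RPKM (SD, n = 3) in PKM2 WT. Everything that differed between the experiments, from animals to sequencing, coincides with these groups, and the sources cannot be told apart. Activation state is among them: Ifng averaged 23.4 RPKM in PKM2 WT and 1044 RPKM in vehicle, and whether the genotype libraries were stimulated as labelled was not tested.

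In limma, a linear model fitted over all genes with p-values adjusted by Benjamini-Hochberg, 4 of the 5 regulators were lower in PKM2 WT than in vehicle at an adjusted p under 0.05 and none was higher. Lower genes made up 38.6% of the 11142 tested, and those past the threshold in either direction 75.3%, so the count itself lies in a comparison where most genes differ. The log2 fold change was -1.24 for Srsf3 (SE 0.06, limma adjusted p = 5.23e-08), -1.16 for Hnrnpa1 (SE 0.07, limma adjusted p = 2.50e-07) and -1.10 for Ptbp1 (SE 0.08, limma adjusted p = 9.05e-07). Genes called lower by at least 2-fold on this scale made up 13.1% of those tested, and these 3 regulators were among them. Hnrnpa2b1 changed by -0.49 (SE 0.05, limma adjusted p = 2.07e-05), and by -0.25 after quantile normalization (limma adjusted p = 0.0344). Rbm4 differed by 0.08 (95% interval -0.08 to 0.24, limma adjusted p = 0.343), but passed the threshold, higher in PKM2 WT, after quantile normalization (0.26, limma adjusted p = 0.00909). With 20 arrangements of the libraries an exact permutation test (two-sided) has a floor of p = 0.1, which the 4 lower genes reached.

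The same split held over all 11 libraries. The 4 regulators were lower in every one of the 5 genotype libraries than in any of the 6 drug libraries, a pattern that 34.8% of the tested genes shared. The median log2 fold change of the 5 regulators between PKM2 WT and vehicle was -1.10, beside -0.0038 over all genes tested.

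**Figure D2:**
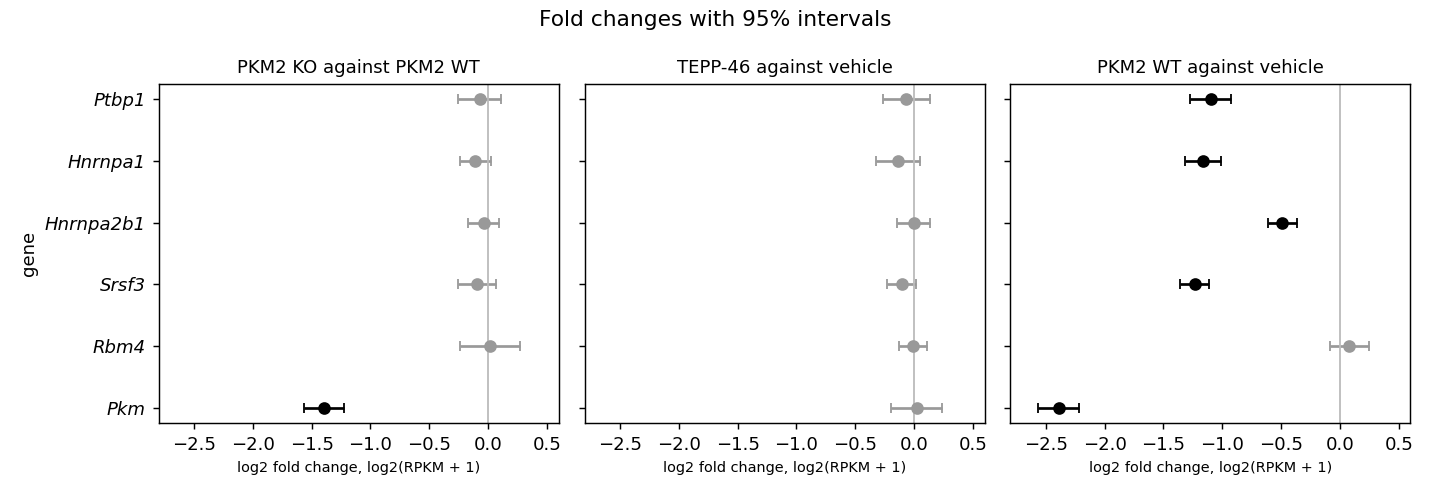
Log2 fold changes on the log2(RPKM + 1) scale (x axis) of the 5 regulators and Pkm in the 3 comparisons, with 95% intervals from limma and black symbols for an adjusted p under 0.05. In the genotype comparison Pkm stands at -1.40 while all 5 regulators have intervals that include 0.

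The genotype comparison asks whether loss of the M2 isoform was accompanied by a change in the factors that produce it. Pkm fell by 1.40 on the log2 scale (SE 0.07, limma adjusted p = 0.00847), and none of the 5 regulators passed the threshold. In this comparison 0.0987% of the tested genes passed, 11 in all, so a count of 0 among 5 genes lies near the background. The Pkm call did not pass without PKM2 WT replicate 2 (limma adjusted p = 0.0596), without PKM2 KO replicate 1 or 2 (0.108 and 0.0728) or with the replicate number as a block (0.267), with a log2 fold change from -1.42 to -1.38 in those 4 fits. No regulator passed in any of the 14 alternatives run.

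Ptbp1 had a mean of 79.2 ± 0.120 RPKM (SD, n = 2) in PKM2 KO and 83.5 ± 5.75 RPKM (SD, n = 3) in PKM2 WT, a log2 fold change of -0.07 with a 95% interval from -0.25 to 0.11. Hnrnpa1, with means of 220.1 ± 5.76 RPKM (SD, n = 2) and 237 ± 8.31 RPKM (SD, n = 3), differed by -0.11 (95% interval -0.24 to 0.03, limma adjusted p = 0.696). Its groups did not overlap, as was the case for 24.6% of tested genes. Srsf3 differed by -0.10 (interval -0.26 to 0.06), Hnrnpa2b1 by -0.04 (interval -0.17 to 0.09) and Rbm4 by 0.02 (interval -0.24 to 0.27). Over the 5 genes the intervals reached from 0.837-fold to 1.21-fold on the log2(RPKM + 1) scale. The median of the 5 was -0.07, beside 0.00 over all genes. Markers of growth and some markers of other cells also differed with the genotype label. Of 6 T cell markers 2 were read, Cd3d and Cd3g. They summed to between 79.0 and 110.4 RPKM in the control libraries and between 9.44 and 21.2 RPKM in the knockout libraries. Most of that sum was Cd3g, with means of 84.97 RPKM and 10.5 RPKM, and Cd3d had means of 8.35 RPKM and 4.78 RPKM. All 4 basophil and mast cell markers had lower means in the knockout, with a median log2 fold change of -0.93. So did all 7 proliferation markers, with a median of -0.57. Of 5 macrophage and dendritic cell markers 2 were read, without a shared direction. Cd68 had a higher mean in the knockout, 20.45 against 16.98 RPKM, and Itgax a lower one, 250 against 265 RPKM. None of these markers passed the threshold, which 0.0987% of all tested genes did. Their part in the regulators' values was not tested.

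Within a library the level of Pkm can be set against that of Ptbp1. The ratio of Pkm to Ptbp1 RPKM was 2.51, 2.58 and 2.32 in the libraries labelled PKM2 WT and 0.969 and 0.989 in those labelled PKM2 KO. It was 5.72, 7.10 and 5.39 in vehicle and 6.27, 7.43 and 5.64 under TEPP-46. The knockout libraries were thus the lowest and the drug libraries the highest, with no overlap between PKM2 WT, PKM2 KO and the drug libraries. On log2(RPKM + 1) the ratio differed by -1.32 between PKM2 KO and PKM2 WT, where Pkm differed by -1.40 and Ptbp1 by -0.07. The genotype difference of this ratio restates the loss of the targeted Pkm and is no separate result on Ptbp1. An exact two-sided permutation test of the log2 ratio gave p = 0.1 for PKM2 KO against PKM2 WT, the smallest that 10 arrangements allow, and p = 0.6 for TEPP-46 against vehicle.

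The ratio of Ptbp1 to Rbm4, factors that act in opposite directions on the exon choice, separated the experiments but not the groups within them. PKM2 WT gave 2.41, 1.89 and 2.16, and PKM2 KO 2.21 and 1.84, against 4.98, 4.61 and 5.07 in vehicle and 4.88, 4.39 and 4.85 under TEPP-46. The log2 ratio, taken on log2(RPKM + 1), was lower by 1.18 in PKM2 WT than in vehicle (difference -1.18, exact two-sided permutation p = 0.1, the smallest possible). It differed by -0.09 between PKM2 KO and PKM2 WT (exact permutation p = 0.6) and by -0.05 between TEPP-46 and vehicle (exact permutation p = 0.5), both within the spread of the libraries. Without PKM2 KO replicate 2 the first of these turned to 0.04.

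**Figure D3:**
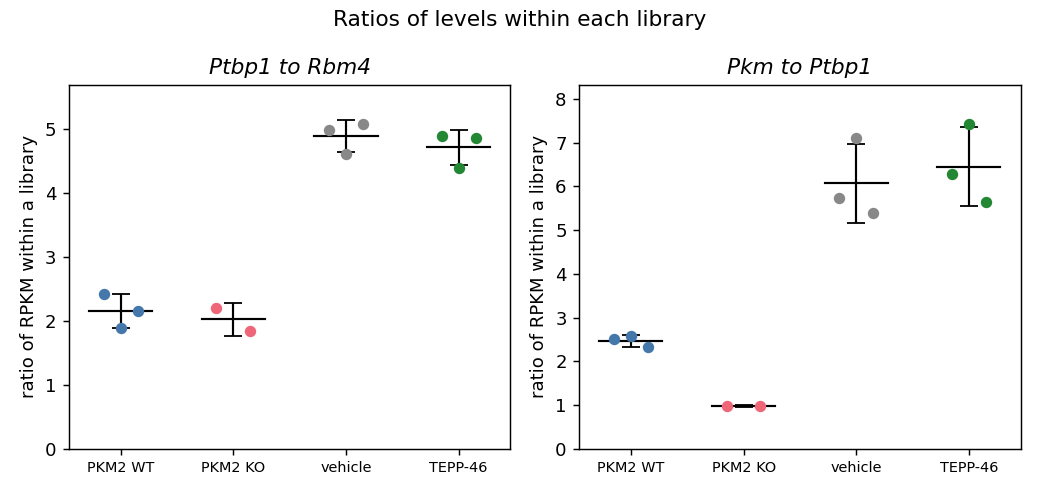
Ratio of Ptbp1 to Rbm4 RPKM and of Pkm to Ptbp1 RPKM (y axes, from 0) in each library, by group, with the mean and SD in black. The Ptbp1 to Rbm4 ratio lies between 1.84 and 2.41 in the genotype libraries and between 4.39 and 5.07 in the drug libraries.

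The drug comparison asks whether activating PKM2 alters transcripts of stimulated NK cells. All 5 regulators had means lower under TEPP-46 than in vehicle, with 95% intervals that include 0. None passed the threshold, and neither did any of the 11142 genes in limma (0.0%), of which 1051 had an unadjusted p under 0.05. Hnrnpa1 averaged 485 ± 25.8 RPKM with TEPP-46 and 534 ± 41.7 RPKM with vehicle (SD, n = 3 each), a log2 fold change of -0.14 (95% interval -0.32 to 0.05, limma adjusted p = 0.620). Srsf3 was at 234 ± 11.5 against 252 ± 3.58 RPKM (SD, n = 3 each), a log2 fold change of -0.11 (95% interval -0.23 to 0.01, limma adjusted p = 0.560). It was the 1 regulator whose groups did not overlap, which held for 15.3% of tested genes.

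Ptbp1 differed by -0.07 (95% interval -0.26 to 0.13), and by 0.0040 without TEPP-46 replicate 2, its lowest library. Hnrnpa2b1 differed by -0.0024 (interval -0.14 to 0.14) and Rbm4 by -0.01 (interval -0.13 to 0.11), and the sign of both turned under other scalings. Pkm, the gene of the drug's target, differed by 0.02 (interval -0.19 to 0.24). Over the 5 regulators the intervals reached from 0.800-fold to 1.10-fold. The median of the 5 was -0.07, beside -0.02 over all genes, of which 56.6% were below 0. All 8 NK cell markers had log2 fold changes above 0, with a median of 0.19. Of 7 proliferation markers 6 were below 0 and 1 above, with a median of -0.10. None of these markers passed the threshold, as held for all tested genes. Their part in the regulators' values was not tested.

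Promoters were read for the members that moved together and for Rbm4, which did not, from RefSeq windows of 300 bases on GRCm38.p6 that run from 250 bases before the gene start to 50 after it. All 5 regulators matched. The windows were searched on both strands for CACGTG, the E-box that MYC and related factors bind, TATAAA and CCAAT, in capitals below. The E-box stands in 7.15% of the 32851 windows, TATAAA in 13.6% and CCAAT in 37.4%. Ptbp1 was the regulator with an E-box, which begins 45 bases before the start. TATAAA was found for Srsf3 and Rbm4, and CCAAT for all 5. In Srsf3 TATAAA begins 18 bases before the start. Rbm4 has 2 windows with separate starts, and the same TATAAA begins 49 bases before the first and 157 before the second. In Pkm neither CACGTG nor TATAAA was found. A match describes letters and shows no binding. The windows shown are chr10:79854182-79854481 on the plus strand for Ptbp1, chr17:29032410-29032709 on the plus strand for Srsf3 and chr19:4793960-4794259 on the minus strand for the first window of Rbm4.
Ptbp1 promoter: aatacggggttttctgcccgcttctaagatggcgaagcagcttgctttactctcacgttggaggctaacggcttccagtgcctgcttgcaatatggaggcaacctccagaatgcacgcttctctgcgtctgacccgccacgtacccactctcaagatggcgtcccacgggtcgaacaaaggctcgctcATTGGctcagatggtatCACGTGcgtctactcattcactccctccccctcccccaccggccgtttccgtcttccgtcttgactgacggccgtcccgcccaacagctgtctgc
Srsf3 promoter: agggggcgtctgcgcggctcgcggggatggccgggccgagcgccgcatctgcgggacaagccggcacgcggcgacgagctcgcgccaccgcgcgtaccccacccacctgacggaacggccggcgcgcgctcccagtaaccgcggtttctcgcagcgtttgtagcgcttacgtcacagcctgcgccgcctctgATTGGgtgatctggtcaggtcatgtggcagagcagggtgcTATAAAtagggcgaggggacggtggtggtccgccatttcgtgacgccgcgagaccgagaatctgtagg
Rbm4 promoter: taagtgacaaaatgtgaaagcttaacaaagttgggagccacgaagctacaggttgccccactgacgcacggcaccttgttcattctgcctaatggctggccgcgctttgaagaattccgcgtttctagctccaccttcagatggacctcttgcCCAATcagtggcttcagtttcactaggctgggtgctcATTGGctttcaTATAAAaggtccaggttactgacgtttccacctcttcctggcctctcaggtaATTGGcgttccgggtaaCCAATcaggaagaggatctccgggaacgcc

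MYC, the transcription factor known to raise PTBP1, hnRNPA1 and hnRNPA2B1 in tumour cells, was read at the level of its gene. Myc averaged 22.2 ± 1.46 RPKM in PKM2 WT and 75.2 ± 4.32 RPKM in vehicle (SD, n = 3 each, log2 fold change -1.72, limma adjusted p = 2.02e-08). It averaged 19.1 ± 0.141 RPKM (SD, n = 2) in PKM2 KO and, under TEPP-46, 67.8 ± 3.43 RPKM (SD, n = 3), neither past the threshold (limma adjusted p = 0.587 and 0.538). Of the 10 genes of the MYC network and Nek2 list, 6 were lower and 3 higher in PKM2 WT than in vehicle, where 38.6% of all tested genes were lower and 36.7% higher. Mxd1, a partner of MAX that opposes MYC, fell from 173 RPKM in vehicle to 15.9 RPKM in PKM2 WT (limma adjusted p = 3.56e-09), and Mxd4, of the same family, was at 77.9 against 15.8 RPKM (limma adjusted p = 9.33e-09). Nek2, a mitotic kinase reported to act with hnRNPA1 on Pkm in human cells, was at 2.90 RPKM in PKM2 KO against 5.20 RPKM in PKM2 WT without passing the threshold (limma adjusted p = 0.459). Mxd3, of the same family as Mxd1, was at 5.40 against 9.83 RPKM (limma adjusted p = 0.493).

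The closest paralogs of the regulators did not all move with them. Of 6 measured, 3 were lower and 1 was higher in PKM2 WT than in vehicle, beside 38.6% and 36.7% of all tested genes, with a median log2 fold change of -0.32. Srsf7, the nearest relative of Srsf3, was at 34.8 against 68.8 RPKM (limma adjusted p = 4.07e-07), Hnrnpa0 at 21.2 against 40.9 RPKM (limma adjusted p = 1.92e-05) and Hnrnpa3 at 157 against 245 RPKM (limma adjusted p = 0.000131). Ptbp3, the blood cell paralog of Ptbp1, averaged 93.4 ± 4.76 RPKM in PKM2 WT and 93.6 ± 1.41 RPKM in vehicle (SD, n = 3 each). It thus exceeded Ptbp1 in mean RPKM in PKM2 WT, where Ptbp1 was at 83.5 RPKM, and lay below it in vehicle, at 179.6 RPKM. Ptbp2, the neuronal paralog whose transcript PTBP1 is known to destabilise, was at 12.4 ± 2.03 RPKM in PKM2 WT and 9.66 ± 1.55 RPKM in vehicle (SD, n = 3 each, limma adjusted p = 0.0559). Rbm4b, the neighbouring copy of Rbm4, was the higher gene, at 13.5 ± 0.908 against 10.3 ± 1.07 RPKM (SD, n = 3 each, limma adjusted p = 0.00426). Reads of Rbm4 and Rbm4b may be shared between the copies. Within the experiments no paralog passed, where 0.0987% of all tested genes did in the genotype comparison and 0.0% in the drug comparison.

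Most other genes of the hnRNP and SR families were lower in PKM2 WT than in vehicle, a comparison in which 38.6% of all tested genes were lower and 36.7% higher. Of 22 other hnRNP genes 17 were lower and 1 higher, with a median of -0.59, and of 10 other SR and SR-like genes 8 were lower and none higher, with a median of -0.51. Hnrnpab, at 122 against 481 RPKM (limma adjusted p = 4.25e-08), had the smallest p of the hnRNP list, followed by Hnrnpll, a regulator of CD45 splicing in lymphocytes, at 6.12 against 14.7 RPKM (limma adjusted p = 8.09e-08) and Pcbp1 at 26.7 against 75.9 RPKM (limma adjusted p = 1.52e-07). Srsf2 led the SR list, at 111 against 292 RPKM (limma adjusted p = 9.91e-08), with Srsf6 at 56.6 against 114 RPKM and Srsf9 at 45.4 against 88.9 RPKM. The proteins that recognise the 3 prime splice site, where PTBP1 competes with U2AF, were lower in 8 of 9 cases and higher in 1, with a median of -0.72. U2af1 was at 58.03 against 143 RPKM, U2af2 at 67.4 against 144.5 RPKM and Sf3b3 at 30.9 against 77.2 RPKM (limma adjusted p = 1.24e-06, 1.41e-06 and 3.18e-07).

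**Figure D4:**
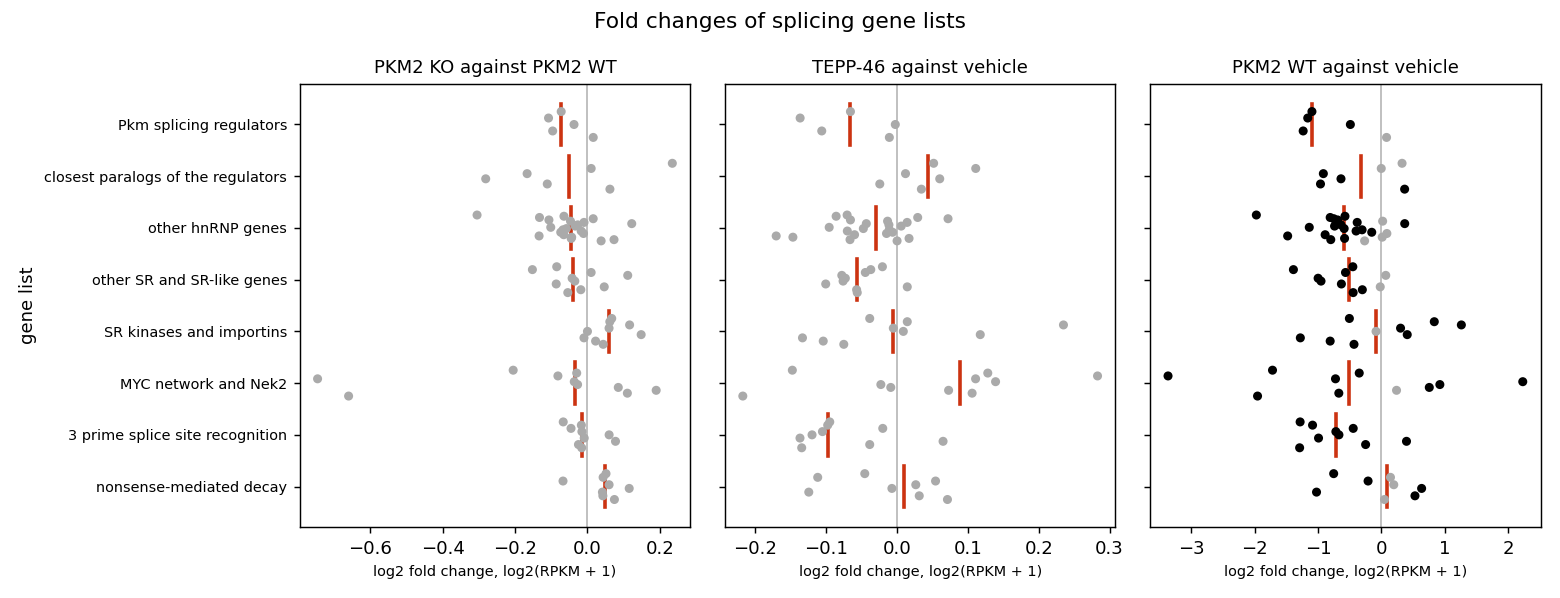
Log2 fold changes on the log2(RPKM + 1) scale (x axes, a separate scale for each comparison) of the measured genes of 8 splicing gene lists, with a point for each gene, black for an adjusted p under 0.05, and a red bar at the list's median. In PKM2 WT against vehicle the regulators have a median of -1.10 and the other hnRNP genes of -0.59.

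In the genotype and drug comparisons no gene of these lists passed, where 0.0987% and 0.0% of all tested genes did. The medians of the other hnRNP genes were -0.05 for PKM2 KO against PKM2 WT and -0.03 for TEPP-46 against vehicle, those of the other SR genes -0.04 and -0.06, and those of the 3 prime splice site genes -0.02 and -0.10. Hnrnpab was at 98.1 RPKM in PKM2 KO and 122 RPKM in PKM2 WT (limma adjusted p = 0.459), Hnrnpa3 at 129 against 157 RPKM (limma adjusted p = 0.459) and Srsf2 at 99.6 against 111 RPKM (limma adjusted p = 0.587). Under TEPP-46, Pcbp1 was at 67.4 RPKM against 75.9 RPKM in vehicle (limma adjusted p = 0.358).

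The genes whose profile over the 11 libraries lay nearest to each regulator were found by the root mean square distance between log2(RPKM + 1) values centred on each gene's mean. For Ptbp1 they were Rpl7l1 (distance 0.03) and Sec13 (0.04), for Hnrnpa1 Wdr5 (0.04) and Psma5 (0.04), and for Srsf3 Txnl1 (0.04) and Psmd6 (0.05). Hnrnpa2b1 lay nearest to Sept9 (0.03) and M6pr (0.04), and Rbm4 to Zcchc4 (0.04) and Mms19 (0.05). Among the regulators themselves Ptbp1 and Hnrnpa1 were the closest pair, at 0.06, and Srsf3 and Rbm4 the farthest, at 0.67. These profiles include the step between the experiments, so genes with a step of like size lie near each other by this measure. Shared regulation was not tested.

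Measures of growth and listed markers of other cells moved with the step between the experiments. The 7 proliferation markers summed to between 339 and 450 RPKM in PKM2 WT, between 250.3 and 255 in PKM2 KO, between 1505 and 1555 in vehicle and between 1403 and 1484 under TEPP-46. Mki67, a marker of cycling cells, averaged 57.7 ± 3.65 RPKM in PKM2 WT and 146 ± 4.45 RPKM in vehicle (SD, n = 3 each). All 4 basophil and mast cell markers were read, summing to between 79.95 and 188 RPKM in PKM2 WT and between 6.62 and 16.3 RPKM in vehicle, and 2 of 6 T cell markers (Cd3d and Cd3g), summing to between 79.0 and 110.4 RPKM against 8.99 to 10.9 RPKM. Of 5 macrophage and dendritic cell markers 2 were read, Itgax and Cd68, at a sum between 272 and 296 RPKM against 19.7 to 21.1 RPKM. Most of the PKM2 WT sum was the single gene Itgax, with means of 265 RPKM in PKM2 WT and 10.1 RPKM in vehicle. The sum thus follows 1 gene and does not show that such cells differed. Cd68 had means of 17.0 and 10.2 RPKM. Of 4 B cell markers none was analysed here. The 8 NK cell markers summed to between 6348 and 7809 RPKM in PKM2 WT and between 5068 and 5496 RPKM in vehicle, most of it Gzma, and did not share a direction. Of the 8, 5 were higher and 1 lower in PKM2 WT, beside 36.7% higher and 38.6% lower among all tested genes. Klrb1c was at 387 against 42.5 RPKM and Prf1 at 218 against 663.5 RPKM (limma adjusted p = 4.21e-09 and 4.81e-08). Rn7s1, Rn7s2 and Rn7sk, small RNAs without a poly(A) tail, took between 48.3% and 56.2% of the summed RPKM in the genotype libraries and between 32.4% and 42.0% in the drug libraries. The part of these measures in the regulators' levels was not tested. In bulk RNA, fewer cells of a type and less RNA per cell cannot be told apart.

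None of the 5 regulators is among the 11 genes of the authors' deposited table for the knockout or the 24 genes of the authors' deposited table for TEPP-46.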

How the data were processed

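RNA of 12 labelled samples was sequenced, and 11 columns of the deposited table matched a sample by name. PKM2 KO replicate 3 was not analysed here, and 5 further columns of libraries were not used. Reads were aligned with STAR to mm10, per the submitters' processing notes. The sources used here do not name the counting tool, strand setting or annotation. A poly(A)-selected stranded kit is named in the labels' protocols and total RNA in the series text. The authors deposited RPKM, rounded to 2 decimals, for 11706 genes, of which 11675 matched GENCODE M21 of GRCm38, the mm10 assembly. The authors deposited the mean ratio and p-value of their own comparisons, quoted only as theirs.

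The RPKM became log2(RPKM + 1), and 11142 genes averaging 1 RPKM or more over the 11 libraries were kept. Testing used limma (version 3.58.1, R 4.3.3) with its mean-variance trend, and Benjamini-Hochberg adjusted p-values over every kept gene were held to a threshold of 0.05. The genotype and drug fits used their 2 groups, and PKM2 WT against vehicle used all 4. Fold changes are on the log2(value + pseudocount) scale. Exact permutation tests used the absolute difference of means (Python 3.11.15, numpy 2.4.6), and figures matplotlib 3.10.9. Read depth is unknown: of 224 to 272 genes under 300 bases compared between libraries, at most 6 shared 1 ratio (tolerance 0.0015 in the natural log), so no counting interval is given. The fits were tested on simulated data.

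The members and lists were chosen with earlier results of these data known, so no list was tested as a set. The text names the 5 regulators, Pkm, up to 3 genes of each other list with the smallest p, the 2 genes nearest to each regulator and, outside this rule, genes that bear on the labels or are paralogs. Alternatives were the pseudocount, the filter, 3 scalings, the spread, the replicate block, leaving out each library and, added after seeing the data, protein-coding genes only.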

Additional observations from a re-analysis of the deposited data

How the results depend on the processing

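Of 415 alternatives over all results, 379 kept the direction and the side of the threshold, 17 turned a sign and 19 moved a call or a count. No regulator passed in the genotype or drug comparison under any of them, and Ptbp1, Hnrnpa1, Hnrnpa2b1 and Srsf3 passed in PKM2 WT against vehicle under all. Where a value moved, the cause was not tested.

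The 11 genes called for PKM2 KO against PKM2 WT became 7 with a pseudocount of 5 RPKM, 25 with the spread of all 4 groups, 0 with the replicate number as a block, and 5 (without PKM2 WT replicate 2) to 21 (without PKM2 KO replicate 2) with a library left out. The Pkm log2 fold change was -1.42 in the replicate block, and -1.42 to -1.35 with a library left out. Hnrnpa2b1 turned to 0.033 under quantile normalization. With a library left out Rbm4 ran from -0.11 to 0.15 and the Ptbp1 to Rbm4 log2 ratio from -0.22 to 0.040.

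For TEPP-46 against vehicle, the 0 genes called became 1 with a pseudocount of 0.1 RPKM, 1 after scaling to a common sum without 7SL and 7SK RNA, 3 in the replicate block, 3 with protein-coding genes only, and 0 to 3 with a library left out. Scaling to a common median turned Hnrnpa2b1 to 0.024 and Rbm4 to 0.015, scaling to a common sum turned them to 0.028 and 0.018, and quantile normalization turned Rbm4 to 0.018. With a library left out Ptbp1 ran from -0.13 to 0.0040, Hnrnpa2b1 from -0.043 to 0.039, Rbm4 from -0.049 to 0.0095 and Pkm from -0.021 to 0.10. For PKM2 WT against vehicle, quantile normalization gave 0.26 for Rbm4.

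The replicate numbers were not taken as pairs, since the labels name no shared source. Not every same-numbered pair had deviations correlated above 0.1 (0.0523, 0.284 and 0.275 in the drug comparison, 0.0702 and -0.0967 in the genotype comparison). The 2 PKM2 KO libraries deviate from their mean in mirror image, so the genotype values say little about pairing. Each drug library did correlate best with its own number, a hint from the data and not the design, and with the block the limma adjusted p was 0.126 for Hnrnpa1 and 0.248 for Srsf3. Leaving out a PKM2 KO library leaves 1, which is assumed to vary like the controls. The small groups limit precision, and read depth is unknown.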

Other observations

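Kinases that phosphorylate SR proteins and importins that carry splicing factors into the nucleus were read as a further list. In PKM2 WT against vehicle, 4 of 9 genes passed as higher and 4 as lower, with a median log2 fold change of -0.09, near the 36.7% higher and 38.6% lower among all tested genes. Clk1, a kinase of SR proteins, averaged 157 ± 18.8 RPKM in PKM2 WT and 64.6 ± 1.46 RPKM in vehicle (SD, n = 3 each) (limma adjusted p = 3.33e-07), opposite in direction to Srsf3. Tnpo1, the importin of hnRNPA1, was at 23.6 against 58.9 RPKM (limma adjusted p = 3.02e-07) and its relative Tnpo2 at 13.0 against 23.5 RPKM (limma adjusted p = 1.13e-06). Under TEPP-46 Clk1 was at 76.2 ± 1.19 RPKM (SD, n = 3), higher than vehicle in 3 of 3 libraries but not past the threshold (log2 fold change 0.23, limma adjusted p = 0.316). Such a lack of overlap held for 15.3% of tested genes, and for 7.61% with TEPP-46 higher.

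Factors of nonsense-mediated decay, which removes transcripts of SR and PTB genes that carry a poison exon, were lower in 3 and higher in 2 of 8 cases in PKM2 WT against vehicle, with a median of 0.09, beside 38.6% lower and 36.7% higher among all tested genes. Smg5 was at 25.7 against 53.1 RPKM, Upf1 at 24.99 against 42.8 RPKM and Smg6 at 28.7 against 19.6 RPKM (limma adjusted p = 3.99e-05, 6.43e-06 and 7.97e-05). No gene of either list passed in the genotype or drug comparison, where 0.0987% and 0.0% of all tested genes did. The gene-level RPKM do not tell productive transcripts of the regulators from those with a poison exon.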
